A study of Mus musculus with 8 samples.

Results

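The genes described here encode the subunits of the mitochondrial respiratory chain and of ATP synthase. They were taken by name from the probe table, as every row whose gene symbol begins with Nduf, Sdh, Uqcr, Atp5, Cox4, Cox5, Cox6, Cox7 or Cox8. The rule found 95 of the 25697 probes on the array, which carry 77 of its 18138 gene symbols. Of these probes, 89 belong to 72 structural subunit genes, with 43 probes for complex I, 6 for complex II, 6 for complex III, 18 for complex IV and 16 for complex V. The other 6 probes belong to 4 assembly or related factors (Ndufaf1, Atp5s, Atp5sl and Cox7a2l) and to Cox4nb, which is named after its genomic neighbour and is no subunit.

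Bone marrow cells of 8-week-old female mice on the C57bl/6J strain were cultured for 7 days in medium with GM-CSF (10 ng/ml), which all 4 groups share, to give bone marrow-derived macrophages. The WT CON group was wild type and unstimulated, and the WT M1 group was wild type and received LPS (200 ng/ml) and IFN-γ (10 ng/ml) for 6 h. The iNOSKO CON and iNOSKO M1 groups were iNOS deficient cells without and with the same stimulation, from mice that carry the Nos2tm1Lau allele in every cell. Each group was measured on 2 Illumina bead arrays, and since nothing states that both came from separate cultures or mice, p-values measure the spread between arrays, which may be technical.

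Complex I (NADH dehydrogenase) and complex II (succinate dehydrogenase) pass electrons to ubiquinone, complex III passes them on to cytochrome c, and complex IV (cytochrome c oxidase) passes them to oxygen. The protons that complexes I, III and IV pump drive complex V, the ATP synthase. Most subunits are encoded in the nucleus and a few in mitochondrial DNA. Macrophages activated with LPS and IFN-γ are known to turn to glycolysis, and nitric oxide, the product of iNOS, is known to bind cytochrome c oxidase and to damage iron-sulphur proteins of the chain. The array measures mRNA and neither protein nor respiration.

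Ndufs4, an accessory subunit needed to complete the assembly of complex I, was the member measured by most probes, and its probes gave the same result at separate places along the mRNA. The sequences of 3 of its 4 probes are shown for that reason, named by the position of their first base in the transcript. They do not overlap and lie on chromosome 13 in the array's annotation.
Ndufs4 probe at 93: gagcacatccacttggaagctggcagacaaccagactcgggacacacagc
Ndufs4 probe at 209: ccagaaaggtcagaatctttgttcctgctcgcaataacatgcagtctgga
Ndufs4 probe at 441: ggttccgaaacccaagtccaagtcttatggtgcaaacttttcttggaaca

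Mean probe intensity was between 155 and 224 on the 8 arrays, and between 11833 and 12673 probes an array were detected (detection p under 0.05). Scale factors between 0.801 and 1.30 brought the arrays to a common scale, and values are log2 of the scaled intensity. The targeted gene Nos2, which encodes iNOS, was undetected on the 4 unstimulated arrays. It measured 7.45 and 7.04 in WT M1 and 7.52 and 7.69 in iNOSKO M1, so this probe does not set the genotypes apart, and whether it lies inside the altered part of the gene is not given in the sources used here. Macrophage markers were detected in every group (8 of 8), and lymphocyte and fibroblast markers in none. Of the member probes, 84 (69 symbols) were detected on at least 2 arrays and tested, 81 of them detected on all 8 arrays. Of the 11 untested probes, 10 were detected on no array and 1 on a single array. The untested rows include the only probes of Ndufs1, Uqcrfs1, Uqcrq and Atp5k and of the tissue isoforms Cox4i2, Cox7b2, Cox8b and Cox8c.

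The direction of the group as a whole depended on how the arrays were brought to a common scale, and each result is therefore given with that dependence. Besides the reported rank-invariant scaling, the fit was repeated with an intercept in the rank-invariant line, with no scaling, with quantile normalization and with neqc, a background correction and quantile normalization for Illumina arrays. Under the reported scaling 23 of 84 members were called higher in iNOSKO M1 than in WT M1 and 6 lower, against 24.2% of all 13868 tested probes called higher and 24.3% called lower (limma, adjusted p under 0.05). The median member change was 0.20 on the log2 scale and the median of all tested probes 0.00. Under quantile normalization 10 members were higher and 21 lower (median -0.17), and under neqc 13 and 28 (median -0.14). Here and below, member counts under a single other setting are given without the share of all tested probes under that setting. They describe the dependence on the processing and do not set the members apart from other probes. The level of a member matters here, since over the 1961 tested probes with a mean intensity of at least 500 the median change was 0.24 under the reported scaling. The 53 members above that threshold, which was chosen after values were seen, had a median of 0.22.

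**Figure D1:**
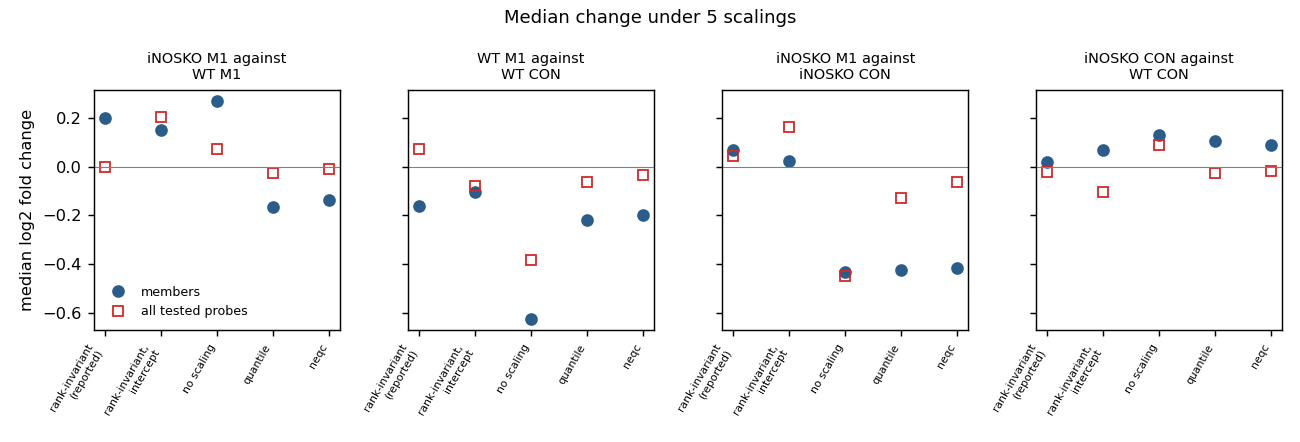
Median log2 fold change (y axis) of the 84 tested members (filled circles) and of all 13868 tested probes (open squares) under 5 scalings (x axis), in 4 comparisons. The member median changed sign between scalings in iNOSKO M1 against WT M1, from 0.20 as reported to -0.17 under quantile normalization, and stayed below 0 in WT M1 against WT CON.

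A smaller number of members kept both their direction and their call under all 5 scalings. In iNOSKO M1 against WT M1 these were 9 probes of 6 genes that were higher (19.3% of all tested probes met this rule) and 4 probes of 4 genes that were lower (17.9% of all). The higher genes were Ndufs4, Ndufb2, Cox6c, Cox7b, Cox7a2 and Atp5j. The lower ones were Ndufs7, Ndufa6, Atp5s and Atp5sl. As a share of those tested, fewer members than probes at large met the rule in either direction.

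**Figure D2:**
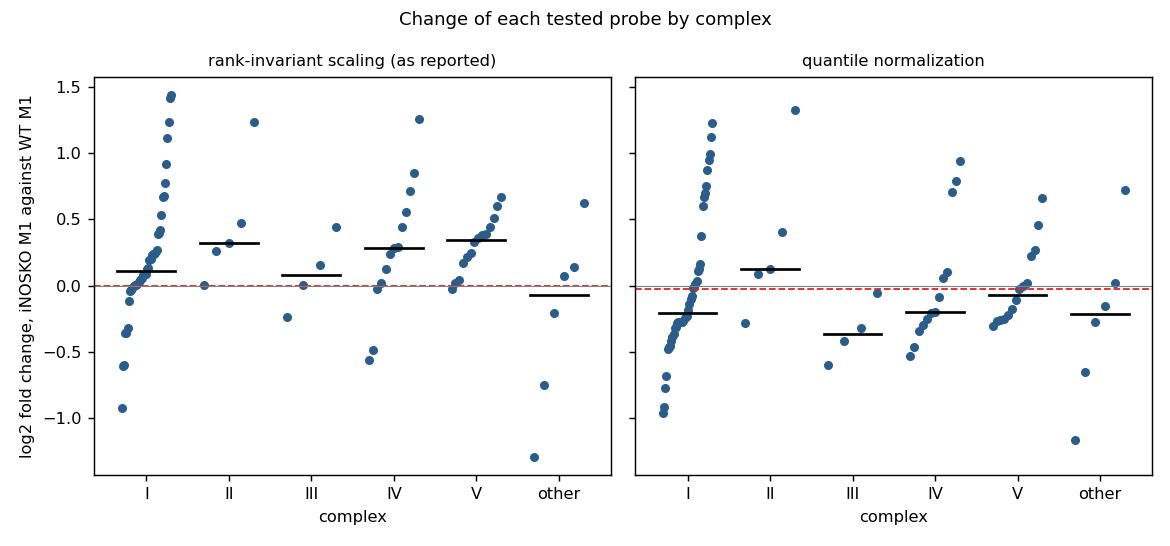
Log2 fold change of iNOSKO M1 against WT M1 (y axis) for each tested member probe (points, ordered by size within a complex) by complex (x axis), under the reported scaling and under quantile normalization. Black lines are medians of a complex and the red dashed line is the median of all tested probes. Complex IV moved from a median of 0.28 to -0.20 between the panels, while the 4 Ndufs4 probes of complex I lay between 1.12 and 1.44 in the left panel and between 0.70 and 1.23 in the right panel.

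Complex I, with 42 of the 84 tested probes, held 7 of the 13 probes called under every scaling, 5 of them higher and 2 lower. Ndufs4 was higher in iNOSKO M1 than in WT M1 with each of its 4 probes. The probe at 209 measured 10.25 and 10.13 in iNOSKO M1, 8.80 and 8.71 in WT M1, 9.40 and 9.17 in WT CON, and 9.35 and 9.03 in iNOSKO CON. The iNOSKO M1 arrays thus lay above all 6 other arrays, and the WT M1 arrays below the 4 unstimulated ones. The difference between the M1 groups was 1.44 ± 0.149 (log2, SE; 2.71-fold, adjusted p = 0.00116). The probes at 93, 441 and 557 gave differences of 1.12, 1.23 and 1.42, with adjusted p-values of 0.00125, 0.000496 and 0.000274. Over the 5 scalings the difference of the 4 probes stayed between 0.69 and 1.51, and no alternative setting ended a call.

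**Figure D3:**
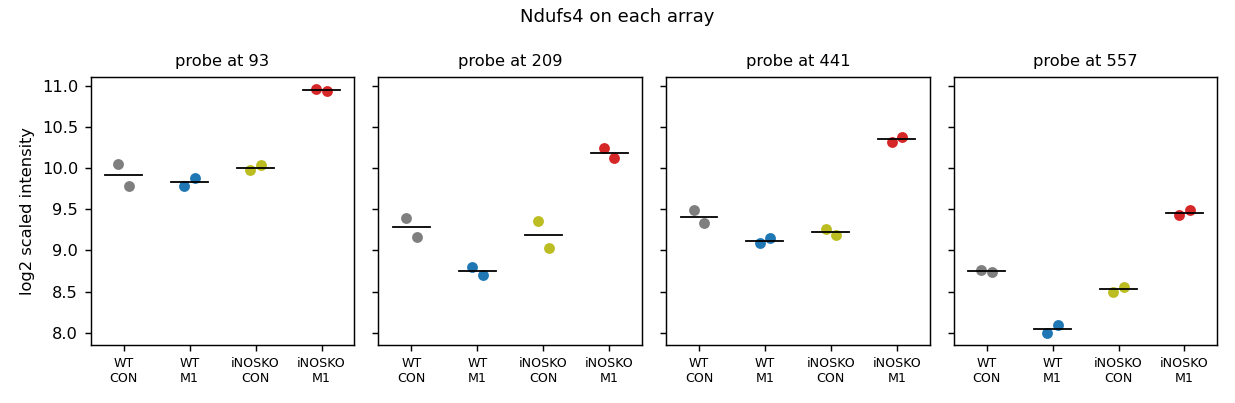
Log2 scaled intensity (y axis) of the 4 Ndufs4 probes on each array, by group (x axis). Points are single arrays, with 2 a group, and lines are group means. On every probe both iNOSKO M1 arrays lie above the other 6 arrays.

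Ndufb2, an accessory subunit of the membrane arm, measured 6.93 and 6.96 in iNOSKO M1 and 6.07 and 5.98 in WT M1. The unstimulated arrays lay at 6.92 and 7.18 in WT CON and 6.70 and 6.75 in iNOSKO CON, so that the WT M1 arrays stood below all others. The difference between the M1 groups was 0.92 ± 0.113 (adjusted p = 0.00207) and ranged from 0.838 to 0.995 over the scalings.

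Ndufs7, a core subunit that carries the last iron-sulphur cluster before ubiquinone, was lower in iNOSKO M1. It measured 9.57 and 9.66 there, 10.25 and 10.20 in WT M1, 10.75 and 10.64 in WT CON, and 10.47 and 10.31 in iNOSKO CON. Both M1 groups lay below their unstimulated counterparts, with iNOSKO M1 the lower. The difference between the M1 groups was -0.61 ± 0.0998 (adjusted p = 0.00545), with -0.92 to -0.54 over the scalings. Ndufa6, an accessory subunit that binds the mitochondrial acyl carrier protein, measured 10.08 and 9.93 in iNOSKO M1 and 10.48 and 10.72 in WT M1. In WT CON it measured 10.36 and 10.39 and in iNOSKO CON 10.79 and 10.74, so iNOSKO M1 stood below the other 3 groups. The difference between the M1 groups was -0.60 ± 0.113 (adjusted p = 0.00903), with -0.96 to -0.52 over the scalings. It missed the threshold when only the 4 M1 arrays were fitted.

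The remaining complex I calls depended on the scaling. In all, 8 of 42 probes were called higher and 4 lower, against 24.2% and 24.3% of all tested probes. At an unadjusted p under 0.05 (limma) the counts were 13 and 5. Of the 26 complex I probes with a mean intensity of at least 500, 6 were called higher and 3 lower. Among all tested probes of that intensity 44.8% were called higher and 19.3% lower. Ndufa1, an accessory subunit, measured 11.88 and 11.84 in iNOSKO M1 and 11.16 and 11.22 in WT M1 (0.67 ± 0.0881, adjusted p = 0.00261). That difference was 0.16 under quantile normalization. Ndufa13, also known as a cell death regulator, had a difference of 0.27 that turned to -0.24 under quantile normalization and neqc. Its call was also lost when only the 4 M1 arrays were fitted and when any single array was left out.

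Where a gene had several probes, their calls could differ. Ndufa8, an accessory subunit, was called lower in iNOSKO M1 by its probe at 460 (-0.32, adjusted p = 0.0489) and had a difference of -0.12 at 169. The reverse held for the response of WT cells, where the probe at 169 fell by 0.51 and the probe at 460 had a difference of -0.04. No gene had probes called in opposite directions. Both Ndufa8 probes are shown because their calls differ.
Ndufa8 probe at 169: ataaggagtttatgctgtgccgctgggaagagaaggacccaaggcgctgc
Ndufa8 probe at 460: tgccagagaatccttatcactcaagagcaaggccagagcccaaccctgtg

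Complex II was represented by Sdhb, the iron-sulphur subunit, and by the membrane anchors Sdhc and Sdhd. Between the M1 groups no probe of 5 was called under limma's adjusted p in either direction, with 1 higher and 0 lower at an unadjusted p under 0.05. Sdhb is covered by the probes at 606 and 608, which share 49 bases and are not independent. They measured 8.79 and 9.04, and 9.14 and 9.20, in iNOSKO M1 against 8.64 and 8.67, and 8.98 and 8.71, in WT M1. The differences of 0.26 ± 0.138 and 0.32 ± 0.122 did not pass. The third Sdhb probe, at 372, was detected on 5 arrays and had an SE of 1.48. Sdhc had a difference of 0.00, which was -0.28 under quantile normalization, and Sdhd one of 0.47 (neither called).

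In complex III, Uqcrh, the hinge protein that contacts cytochrome c, was called higher in iNOSKO M1. It measured 12.05 on both iNOSKO M1 arrays and 11.59 and 11.62 in WT M1, without overlap, a difference of 0.44 ± 0.077 (adjusted p = 0.00682). Quantile normalization and neqc turned it to -0.06. Uqcrc1, Uqcrc2 and Uqcr were not called, with differences of -0.24, 0.16 and 0.00.

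In complex IV, 7 of 13 probes were called higher and 0 lower (0 lower also at an unadjusted p under 0.05, limma), where 24.2% of all tested probes and 44.8% of those with a mean intensity of at least 500 were called higher. Of the 8 complex IV probes above that intensity, 5 were called higher. Under all 5 scalings 1 of these 8 was higher (22.5% of all tested probes of that intensity), and 3 of the 13 (19.3% of all tested probes). Cox6c, Cox7b and Cox7a2, small nuclear-encoded subunits, were higher under all 5 scalings. Cox6c measured 11.43 and 11.32 in iNOSKO M1 and 10.10 and 10.13 in WT M1, with 11.17 and 11.29 in WT CON and 10.89 and 11.02 in iNOSKO CON. The WT M1 arrays lay below every other array. The difference between the M1 groups was 1.26 ± 0.098 (2.40-fold, adjusted p = 0.000522), with 0.78 to 1.33 over the scalings. Cox7b measured 6.77 and 6.76 in iNOSKO M1 and 5.84 and 5.99 in WT M1, a difference of 0.85 ± 0.166 (adjusted p = 0.0102). Without WT M1 replicate 1 the Cox7b difference was 0.77 and missed the threshold. Cox7a2 measured 7.67 and 7.92 against 7.14 and 7.01, a difference of 0.71 ± 0.139 (adjusted p = 0.00988). Without WT M1 replicate 2 it was 0.64 and missed the threshold. Both had no overlap between the M1 groups.

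The other complex IV calls were smaller and changed with the scaling. Cox4i1, the regulatory subunit common to most tissues, measured 12.49 and 12.47 in iNOSKO M1 and 12.20 on both WT M1 arrays. Its difference of 0.28 ± 0.0754 became -0.21 under quantile normalization and neqc. The Cox4i1 call was also lost with an intercept, and when only the 4 M1 arrays were fitted. Leaving out any single array of WT M1, iNOSKO CON or iNOSKO M1 ended it too. Both Cox6a1 probes, which share 31 bases, behaved likewise, with 0.44 and 0.29 as reported and -0.09 and -0.20 under quantile normalization. Cox5a, a nuclear-encoded subunit on the matrix side, had a difference of 0.55, and 0.06 under quantile normalization. Among the isoforms typical of muscle or testis, Cox6a2 and Cox7a1 were detected on all 8 arrays and Cox6b2 on 5, and none was called between the M1 groups (-0.48, -0.03 and -0.56).

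In complex V, 7 of 14 probes were called higher and 0 lower (0 lower also at an unadjusted p under 0.05, limma), against 24.2% and 24.3% of all tested probes. Of its 11 probes with a mean intensity of at least 500, 6 were called higher, against 44.8% of all tested probes of that intensity. Under all 5 scalings 1 of the 14 was higher (19.3% of all tested probes) and 0 of the 11 (22.5% of all of that intensity). The complex V median was 0.34 as reported and -0.07 under quantile normalization. Atp5j, the coupling factor of the stalk, was called higher by both of its tested probes. The probe at 25 measured 7.68 and 7.92 in iNOSKO M1 and 7.14 and 7.13 in WT M1, a difference of 0.67 ± 0.110 (adjusted p = 0.00569) that stayed between 0.60 and 0.74 over the scalings. The probe at 301 had a difference of 0.51 ± 0.102, which was -0.0033 under quantile normalization. Atp5b, the catalytic subunit of F1, measured 13.85 and 13.78 against 13.47 and 13.49, a difference of 0.33 ± 0.0803 that became -0.11 under quantile normalization and neqc. It was also called higher on stimulation in WT cells (0.43) and iNOSKO cells (0.64), and quantile normalization ended both calls. Atp5a1, also of F1, measured 10.18 and 9.98 in iNOSKO M1 against 9.42 and 9.52 in WT M1. Its difference of 0.60 ± 0.155 (adjusted p = 0.0253) was 0.27 under quantile normalization and neqc, where the call was lost. Of the 2 measured genes for the c ring, Atp5g3 was called higher (0.39, and -0.18 under quantile normalization) and Atp5g2 was not called (-0.03).

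Atp5s and Atp5sl are not structural subunits, although both were named after the synthase. Atp5s, coupling factor B, measured 4.09 and 3.75 in iNOSKO M1 against 5.12 and 5.31 in WT M1. The other arrays lay between 4.73 and 5.36, so that both iNOSKO M1 arrays were lowest. The probe was dim, with intensities before scaling of 15.2 and 11.1 in iNOSKO M1 and 29.9 and 30.6 in WT M1. The difference between the M1 groups was -1.29 ± 0.241 (adjusted p = 0.00864), with -1.29 to -0.68 over the scalings. Atp5sl, since named Dmac2 and known as an assembly factor of the complex I membrane arm, measured 6.14 on both iNOSKO M1 arrays against 6.97 and 6.81 in WT M1. Its difference was -0.75 ± 0.132 (adjusted p = 0.00694), with -0.75 to -0.56 over the scalings.

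**Figure D4:**
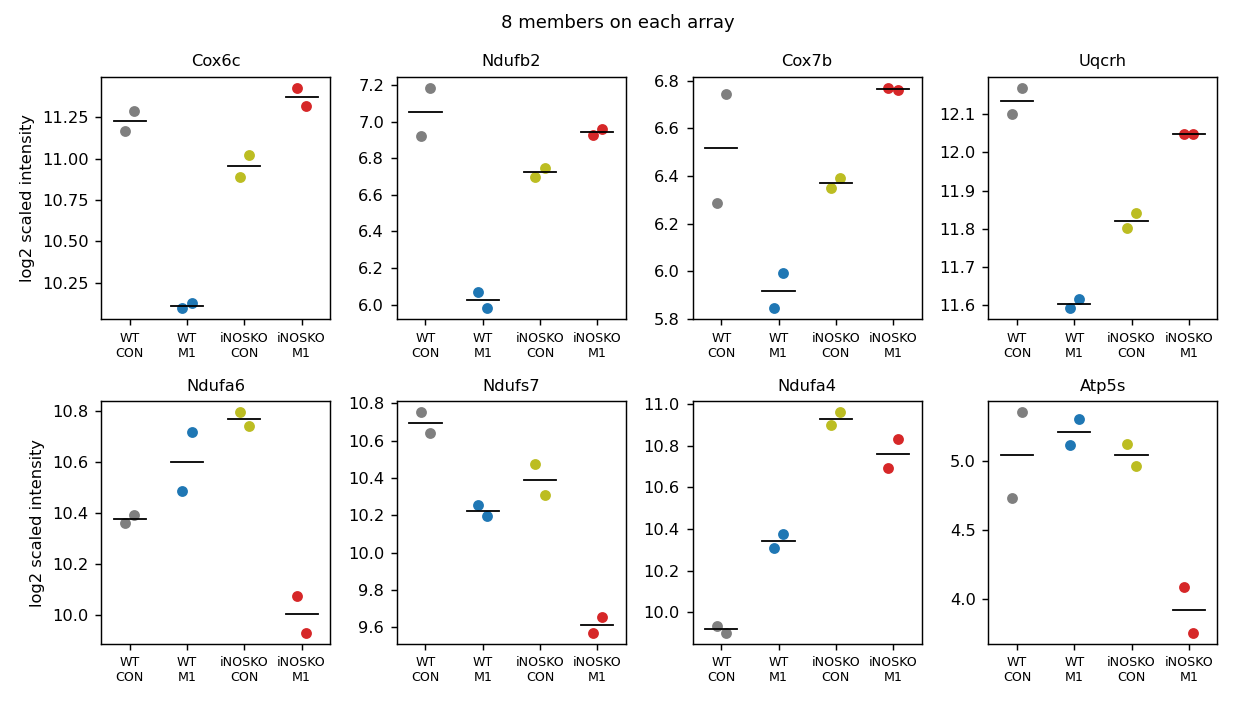
Log2 scaled intensity (y axis, not starting at 0 and with its own range in each panel) of 8 members on each array, by group (x axis). Points are single arrays, with 2 a group, and lines are group means. In the upper row the WT M1 arrays are lowest, and for Ndufa6, Ndufs7 and Atp5s the iNOSKO M1 arrays are lowest.

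Stimulation of WT cells lowered more members than it raised. In WT M1 against WT CON 21 of 84 members were called lower and 7 higher, where 14.9% of all tested probes were called lower and 20.2% higher. Among probes with a mean intensity of at least 500 the share called lower was no larger in the members, at 13 of 53 (24.5%) against 26% of all. The median member change was -0.16 and that of all tested probes 0.07. Every scaling gave more members lower than higher, from 17 lower and 8 higher with an intercept to 54 lower and 0 higher without scaling, and the member median lay below that of all tested probes under each of the 5. Leaving out the scale factors moved the WT response of detected probes down alike, as for Cox6c from -1.12 to -1.58. A call under all 5 scalings was therefore harder to reach for higher probes than for lower ones. Under all 5 scalings 17 probes of 16 genes were lower (13.5% of all tested probes) and 0 higher (8.7% of all tested probes, and 0 members also at an unadjusted p under 0.05, limma). Above the intensity of 500 this rule was met by 9 of 53 members (17%) and by 21.1% of all probes. The 17 probes lay in complex I (9), II (2), III (1), IV (3) and V (1), with Cox4nb as the last. Under the reported scaling the 21 lower calls became 9 without WT CON replicate 1, 11 without WT CON replicate 2, 9 without WT M1 replicate 1, 7 without WT M1 replicate 2 and 8 when only these 4 arrays were fitted.

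Among the called members, the largest falls in WT cells were those of Cox6c (-1.12 ± 0.098, adjusted p = 0.00116) and Ndufb2 (-1.03 ± 0.113, adjusted p = 0.00241), from the values per array given above. Ndufb5, an accessory subunit of complex I, went from 8.51 and 8.41 in WT CON to 7.57 and 7.61 in WT M1, a fall of 0.86. Both overlapping Sdhb probes were called lower, at -0.63 and -0.55, and the call of the probe at 606 was lost without WT CON replicate 1 or either WT M1 array. Uqcrh fell by 0.53, Ndufs7 by 0.47 and Atp5c1, the central stalk of F1, by 0.39. The Atp5c1 call was lost without any of the 4 arrays compared and when only those were fitted. Under the reported scaling WT M1 had the lowest mean of the 4 groups for 47 of 84 members, against 15.1% of all tested probes. Above the intensity of 500 this held for 29 of 53 members, against 18.5% of all. The order was not counted under the other scalings. Under quantile normalization the median member difference between the M1 groups was -0.17, so the order need not hold there. Among the 7 members called higher, none was called under all 5 scalings, a rule that includes the downward shift without scaling. Uqcrc1, a core subunit of complex III, measured 10.37 and 10.30 in WT M1 against 9.81 on both WT CON arrays (0.53 ± 0.0923, adjusted p = 0.0103), a difference that was 0.06 without scaling. That call was lost without either WT CON array (0.50 without each).

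In iNOSKO cells the members as a group had no direction that held over the scalings. In iNOSKO M1 against iNOSKO CON 9 members were called higher and 7 lower, below the 26.2% and 23.8% of all tested probes. Quantile normalization gave 4 higher and 50 lower, neqc 5 and 52, and no scaling 3 and 50. Without scaling the iNOSKO response of detected probes moved down alike, as for the Ndufs4 probe at 441 from 1.13 to 0.63. The shares of all tested probes under these single scalings are not given, so the counts show the dependence on the scaling only. Under all 5 scalings 3 probes were higher (13.7% of all tested probes), all of Ndufs4, and 7 probes of 7 genes were lower (21.3% of all tested probes). The Ndufs4 probe at 441 went from 9.26 and 9.19 in iNOSKO CON to 10.33 and 10.38 in iNOSKO M1, a rise of 1.13 ± 0.0938 (adjusted p = 0.000454) that was 0.63 to 1.13 over the scalings. The 7 lower genes were Atp5s (-1.13), Atp5sl (-0.96), Ndufs7 (-0.78), Ndufa6 (-0.76), Cox4nb (-0.47), Sdhb (-0.46) and Ndufa8 (-0.46). Atp5s missed the threshold without iNOSKO CON replicate 1 (-1.05) or iNOSKO M1 replicate 2 (-0.97). The Sdhb call, at its probe at 606, was lost without any of 5 arrays, which were both of WT M1, both of iNOSKO CON and iNOSKO M1 replicate 1 (-0.49 to -0.34). Both stimulation responses and both genotype comparisons draw on the same 8 arrays, so their values are not independent of each other.

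The difference of the responses asks directly whether stimulation changed a member differently in the 2 genotypes. Under the reported scaling 14 members had a higher response in iNOSKO cells and 8 a lower one (20.8% and 21.1% of all tested probes). Under all 5 scalings 7 probes were higher (14.8% of all tested probes) and 4 lower (15.9% of all). The higher ones were the Ndufs4 probes at 209, 441 and 557 (1.53, 1.42 and 1.64), Cox6c (1.54), Ndufb2 (1.25), Cox7b (0.99) and Cox7a2 (0.94). The lower ones included Ndufa6 (-0.99), Ndufa4 (-0.59) and Atp5d (-0.44). Cox6c fell by 1.12 in WT cells and had a response of 0.42 in iNOSKO cells, and that second value was -0.23 under quantile normalization and neqc while the difference stayed called. Ndufs4, in contrast, rose in iNOSKO cells with each probe and fell in WT cells with the probes at 209 and 557 (-0.53 and -0.70).

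Between the unstimulated groups the number of called members depended on the processing. In iNOSKO CON against WT CON 3 members were called higher and 1 lower, against 15.9% and 16.2% of all tested probes. These became 11 and 0 under quantile normalization, 17 and 2 under neqc, and 9 and 8 with a floor of 16. The same 3 were higher under all 5 scalings (13.3% of all tested probes, and 11 members at an unadjusted p under 0.05), and 0 members were lower (10.5% of all tested probes, and 0 members also at an unadjusted p under 0.05, limma). Ndufa4, counted here with complex I by its name but since placed in complex IV, measured 10.90 and 10.96 in iNOSKO CON against 9.93 and 9.90 in WT CON. The difference was 1.01 ± 0.09 (2.01-fold, adjusted p = 0.00126), with 1.01 to 1.23 over the scalings, and no alternative setting ended the call. In the M1 groups Ndufa4 measured 10.69 and 10.83 in iNOSKO and 10.31 and 10.37 in WT. That difference of 0.42 became -0.01 under quantile normalization and neqc. Ndufc2, an accessory subunit of complex I, differed by 0.46 and Atp5d, the delta subunit of F1, by 0.46. The Ndufc2 call was lost without either WT CON array or iNOSKO CON replicate 2, and the Atp5d call without any of the 4 arrays compared. Uqcrh was the member called lower (-0.31), and this call was lost under quantile normalization and without any single array.

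**Figure D5:**
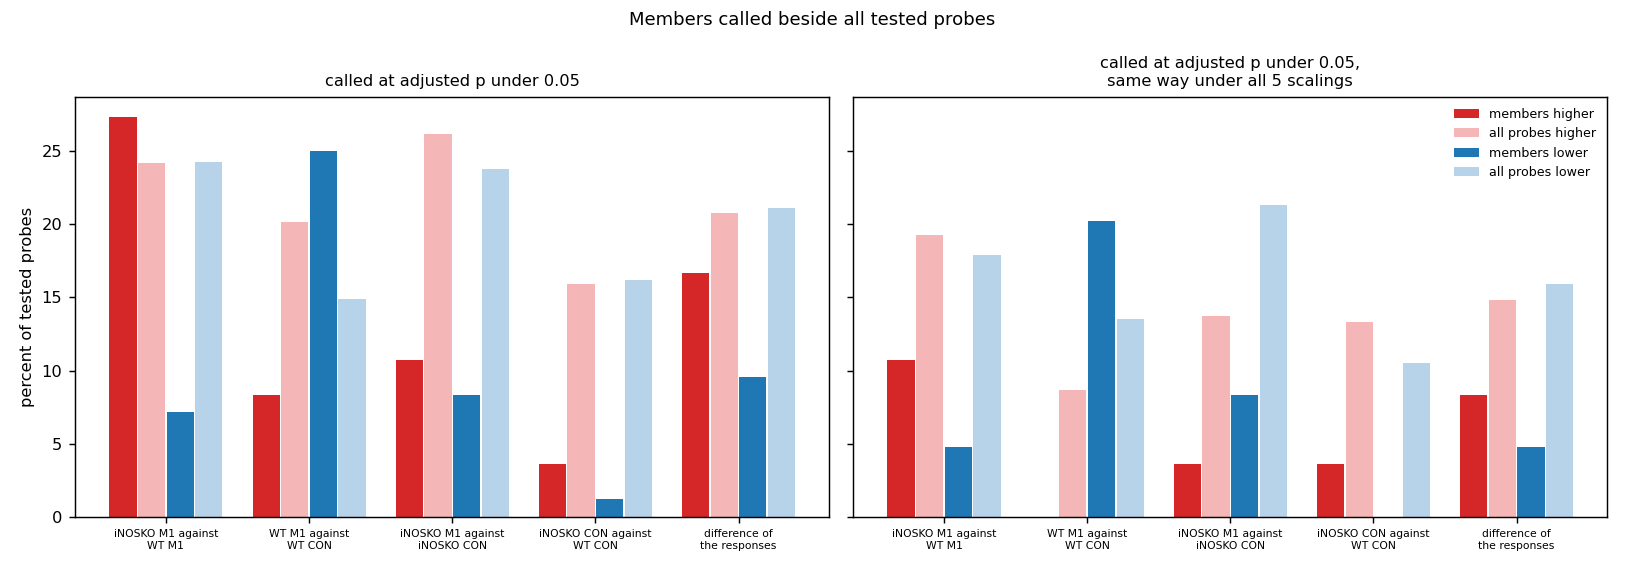
Percent of tested probes called higher (red) or lower (blue) at an adjusted p under 0.05 (y axis, from 0) in each comparison (x axis), for the 84 members (dark) and all 13868 tested probes (light). The left panel is the reported scaling and the right panel counts probes called the same way under all 5 scalings. In the right panel the members exceed all probes in WT M1 against WT CON, called lower (17 probes, against 13.5% of all), which was not so among probes with a mean intensity of at least 500 (9 of 53 members, against 21.1%).

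Genes that work with the chain but carry other names were described from lists. AA467197, the mouse homologue of an Ndufa4-like protein known to be induced in inflammation, measured 11.71 and 11.67 in WT CON, 12.88 and 12.91 in WT M1, 12.02 and 11.98 in iNOSKO CON and 14.18 and 14.22 in iNOSKO M1. The iNOSKO M1 arrays lay above all others, and the difference between the M1 groups was 1.31 (0.84 under quantile normalization). Among the 12 tested electron carriers and partner proteins outside the name rule 4 were called higher in iNOSKO M1 and 1 lower, with a median of 0.30. Of all tested probes 24.2% were called higher and 24.3% lower in this comparison. Gpd2, which feeds electrons from glycerol phosphate to ubiquinone, was higher by 2.29 (1.86 to 2.37 over the scalings), and Cycs, cytochrome c, by 1.68 (1.12 to 1.88). Dhodh, the pyrimidine enzyme that reduces ubiquinone, was lower by -1.07 (-1.07 to -0.67).

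The list counts in this paragraph stand beside 24.2% of all tested probes called higher and 24.3% called lower between the M1 groups. Of 15 tested assembly factors outside the name rule, 5 were called higher and 5 lower (median 0.00). Cox17, which delivers copper to complex IV, Cox18, Cox11 and Acad9 were higher under all 5 scalings, with 1.11, 1.11, 1.06 and 1.03. Bcs1l, which inserts the iron-sulphur protein into complex III, Surf1, Ecsit, Tmem126b and Foxred1 were lower under all 5, with -1.34, -1.03, -1.02, -0.74 and -0.47. Of 14 regulators of mitochondrial biogenesis, 4 were called higher and 4 lower (median -0.06). Ppargc1b, a coactivator that promotes mitochondrial gene expression, measured 4.61 and 4.43 in iNOSKO M1 and between 7.57 and 8.05 on the other 6 arrays. Its difference between the M1 groups was -3.35, with -3.35 to -2.62 over the scalings. Gabpa and Gabpb1, the subunits of an ETS-family factor that binds promoters of many subunit genes, were higher, Gabpa by 1.15 and Gabpb1 by 0.90 to 1.12 over the scalings. Tfam, the packaging factor of mitochondrial DNA, was higher by 0.47, and Polrmt, the mitochondrial RNA polymerase, was lower by -0.66. Of 17 other mitochondrial proteins, 7 were called higher and 1 lower (median 0.21). Sod2, the manganese superoxide dismutase of the matrix, was higher by 1.11 (0.54 to 1.19 over the scalings).

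Marker genes of other cell types and of dividing cells moved with the groups. Their counts stand beside 24.2% of all tested probes called higher and 24.3% called lower between the M1 groups. Dendritic cell markers were higher in iNOSKO M1 than in WT M1 for 5 of 8 tested and lower for 1, and their summed scaled intensity was 954 to 967 in WT CON, 16490 to 17240 in WT M1, 13800 to 14720 in iNOSKO CON and 37620 to 39190 in iNOSKO M1. Markers of dividing cells were lower in iNOSKO M1 for 8 of 9, with sums of 830 to 838.5 against 2155 to 2285 in WT M1, 697 to 757 in WT CON and 2601 in iNOSKO CON. Granulocyte markers were higher for 3 of 6, with sums of 3924 to 4027 against 1376 to 1493 in WT M1. Mpo, of the granulocyte list, and Flt3, of the dendritic cell list, were detected on no array. For comparison, the 84 members summed to 135100 to 137300 in iNOSKO M1 and 111100 to 113400 in WT M1. Macrophage markers were higher for 2 of 8 and lower for 5, with sums of 35580 to 36020 in iNOSKO M1, 31510 to 34140 in WT M1, 30000 to 30420 in WT CON and 23640 to 24400 in iNOSKO CON. The part of these markers in the members' differences was not tested, and in RNA from mixed cells a change in the number of a cell type and in the RNA per cell cannot be told apart.

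The RefSeq promoter table (GRCm38.p6) held 63 of 76 member symbols (Cox4nb left out), with 69 promoters. The motif of NRF1, a regulator of nuclear genes for mitochondria, was searched as GCGCATGC on both strands. It was present in 9 of the 69 promoters (13.0%) and in 2.71% of all 32851 promoters in the table. An ETS motif of the kind GABPA binds, CCGGAAG on both strands, which shares no run of 5 letters with the other motif, was present in 16 (23.2%) against 8.86% of all. The 250 bases before the start of Ndufa6 and Ndufs4 are shown, since these complex I genes moved in opposite directions in iNOSKO cells, with any match to either motif in capitals.
Ndufa6, chr15:82354292-82354541, minus strand: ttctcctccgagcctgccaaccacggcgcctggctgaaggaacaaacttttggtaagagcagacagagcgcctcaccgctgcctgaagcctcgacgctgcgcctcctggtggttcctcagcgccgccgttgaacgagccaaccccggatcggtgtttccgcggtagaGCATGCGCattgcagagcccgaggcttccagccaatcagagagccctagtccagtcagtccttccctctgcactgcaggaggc
Ndufs4, chr13:114388095-114388344, minus strand: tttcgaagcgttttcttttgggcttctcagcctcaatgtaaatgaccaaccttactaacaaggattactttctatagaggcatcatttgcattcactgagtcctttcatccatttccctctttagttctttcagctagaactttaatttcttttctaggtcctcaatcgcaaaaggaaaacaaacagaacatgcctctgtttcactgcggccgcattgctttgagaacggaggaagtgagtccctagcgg
The Ndufa6 stretch holds an NRF1 match and the Ndufs4 stretch holds neither motif. The matches are descriptions of letters, and binding was not measured. A relation between a motif and the direction of a change was not tested.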

How the data were processed

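The authors deposited an intensity per probe, averaged over its beads, and a detection p-value for 8 Illumina arrays. Per the file header no normalization was applied (scanner software report of version 1.9.0), while undetected probes lie around 0 as after background subtraction, so none was subtracted. The submitters' processing notes name GenomeStudio and limma 3.14.4, and the study's methods name rank-invariant normalization, 1 in place of negative values, and log2. From the deposited intensity each array received 1 scale factor, the slope of a robust zero-intercept fit (MASS 7.3.60.0.1) over probes that kept their rank within 0.05 and lay between 0.5 and 0.9 of the rank range. These details were chosen here. A floor of 1 was set before log2, and the tested set comprised probes detected (p-value below 0.05) on 2 or more of the 8 arrays.

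A one-way model of the 4 groups over all 8 arrays was fitted with lmFit and eBayes (limma 3.58.1, R 4.3.3), with Benjamini-Hochberg adjustment over 13868 probes and calls at an adjusted p under 0.05. The procedure was tested on simulated data in which a small set of probes was changed in a single group. Such data do not test the scaling where a large share of probes changes, as between these groups. Precision is limited by 2 arrays a group.

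Members follow a name rule, and the members and the gene lists were chosen with earlier results of these data known. Genes named are, for each complex, the brightest subunit and the largest non-overlapping calls each way per comparison, with the Sdh genes, the isoforms and c ring genes, Ndufa4, the list genes and Nos2. Ndufa1, Ndufa8, Ndufb5, Cox5a, Uqcrc2, Uqcr and members called under all 5 scalings were named after their values were seen. The processing was varied by quantile normalization, neqc, no or a stricter detection filter, a floor of 16, the 4 arrays compared alone, the replicate number as a block, 1 value a gene, a 2-fold minimum and each array left out. The rank-invariant line with an intercept and no scaling were added after seeing the data. The labels do not state the genome build of the probes, so no probe coordinates are given. Genes encoded in mitochondrial DNA, Sdha and Atp5g1 were not analysed here. An item withheld from the text is not reported here.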

Additional observations from a re-analysis of the deposited data

Results flagged for a closer look

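Of the 22 members called in limma's test of the difference of the responses, the 8 chosen by the rule for named genes are given here (iNOSKO minus WT, log2, with SE). Ndufs4 (probe at 557) differed by 1.64 ± 0.117, with responses of -0.70 in WT and 0.94 in iNOSKO cells. Cox6c differed by 1.54 ± 0.139 (-1.12 and 0.42), Uqcrh by 0.76 ± 0.110 (-0.53 and 0.23) and Atp5l, the g subunit of ATP synthase, by 0.68 ± 0.127 (-0.35 and 0.33). Atp5s differed by -1.30 ± 0.342 (0.17 and -1.13), Cox6a2 by -1.14 ± 0.281 (0.72 and -0.42), Ndufa6 by -0.99 ± 0.160 (0.22 and -0.76) and Uqcrc1 by -0.43 ± 0.131 (0.53 and 0.09). The adjusted p-values ranged from 0.000651 for Ndufs4 to 0.0464 for Uqcrc1. Of these, Ndufs4, Cox6c and Ndufa6 stayed called under all 5 scalings. Uqcrh (0.20 under quantile normalization and neqc), Atp5l (0.11 under both, 0.64 without scaling), Cox6a2 (-0.83 under quantile normalization), Atp5s (-1.08 under quantile normalization, -0.85 with an intercept) and Uqcrc1 (-0.47 without scaling) did not. Atp5s, Cox6a2 and Uqcrc1 also lost the call when single arrays were left out. Groups of 2 arrays are too small for the outlier test, and each array was left out in turn instead.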

How the results depend on the processing

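The counts of called members were 29 for iNOSKO M1 against WT M1, 4 for iNOSKO CON against WT CON, 28 for WT M1 against WT CON, 16 for iNOSKO M1 against iNOSKO CON and 22 for the difference of the responses, and are given in that order below. A 2-fold minimum left 6, 1, 2, 2 and 8. Fitting only the arrays compared gave 18 between the M1 groups and 9 for the WT response. Quantile normalization gave 11 between the CON groups and 54 for the iNOSKO response, and neqc 19 and 57 for these and 43 for the difference of the responses. Without scaling there were 8 between the CON groups, 54 for the WT response and 53 for the iNOSKO response, and with an intercept 9 between the CON groups. Between the CON groups there were 17 with a floor of 16, 8 without a detection filter and 16 over probes detected on all 8 arrays. Leaving out 1 array gave 19 to 26, 1 to 7, 8 to 23, 10 to 16 and 12 to 16. The changes beyond 1.5 times came from WT M1 replicate 2 between the M1 groups (19), from WT CON replicate 1 (2) and 2 (1), iNOSKO CON replicate 2 (1) and iNOSKO M1 replicate 1 (7) between the CON groups, and from iNOSKO CON replicate 1 for the iNOSKO response (10). For the WT response they came from WT CON replicates 1 (9) and 2 (11) and WT M1 replicates 1 (12) and 2 (8). For the difference of the responses they came from WT CON replicate 1 (13), WT M1 replicate 2 (12) and iNOSKO CON replicates 1 (13) and 2 (14). The replicate block gave 25, 5, 26, 15 and 17. Arrays with the same number shared no visible deviation (correlations between -0.04 and 0.03). This cannot tell whether the same number marks a common mouse or culture.

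In iNOSKO M1 against WT M1 the sign turned under neqc and quantile normalization for Ndufa13 (-0.24 under both), Sdhc (-0.28 under both), Uqcrh (-0.0589 and -0.0592), Cox4i1 (-0.21 under both), Atp5b (-0.11 under both), Atp5g3 (-0.18 under both), Ndufa4 (-0.0142 and -0.0144), Cox6a1 at 191 (-0.0863 and -0.0868) and at 211 (-0.20 under both) and Cox6b1 at 286 (-0.46 and -0.47) and at 150 (-0.25 under both), and from -0.03 for Cox7a1 (0.0813 and 0.1028, not called). Cox6c in iNOSKO M1 against iNOSKO CON turned to -0.23 under both and to -0.0834 without scaling. In WT M1 against WT CON Ndufa4 turned to -0.0404 and Atp5b to -0.0361 without scaling. The cause was not tested. With an intercept the median of all tested probes between the M1 groups was 0.20, above the member median of 0.15. Of 1010 values of the named members under alternatives, 797 kept direction and call, 157 lost the call and 9 gained it. Another 26 turned sign and were called before or after, and 21 turned sign or reached 0 without a call in either setting. Signal over background limits most the 3 tested probes that were not detected on all 8 arrays. It also limits dim probes that were detected on all 8, such as that of Atp5s.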
